A study of Caenorhabditis elegans with 12 samples.

Results

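Broad MRG-1 domains are long stretches of autosomal chromatin that were called as bound by MRG-1 in every sample of a ChIP-seq experiment in *C. elegans*. The peaks of 6 samples were merged into sites wherever they overlapped by at least 1 bp, and a sample was taken to call each site in which it had a peak. The domains were chosen by 2 measured values, the number of samples that called a site (all 6) and its merged width (at least 8000 bp), on chromosomes II, III, IV and V. Of 8226 merged sites in the series, 2449 were called in all 6 samples on these chromosomes, and 415 of them were broad domains. The other 2034 are called other shared sites here. Because called bases and overlap chose the domains, their width and the share of bases that was called are given as descriptions, and only differences between strains and the fold enrichment were compared.

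The samples were whole worms at the L4 larval stage, 3 replicates of the wild-type strain N2 and 3 of SS104 *glp-4(bn2)* I, immunoprecipitated with an MRG-1 antibody. Per the labels, stocks were kept at 15° and the synchronized larvae of both strains grew at 25°, a temperature at which the temperature-sensitive *bn2* allele leaves the animals without a germline, so that the comparison sets chromatin of all tissues against that of the soma. A difference between the strains can therefore come from germline cells being absent or from MRG-1 binding differently in somatic cells, and these cannot be told apart in whole worms. Nothing in the labels says whether replicates came from separate cultures, so the spread between samples may be technical, and 6 input samples were not analysed here.

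MRG-1 is the *C. elegans* ortholog of mammalian MRG15, a chromodomain protein found in histone acetyltransferase and deacetylase complexes. The chromodomain of MRG15 binds histone H3 methylated at lysine 36, a mark that lies over the bodies of transcribed genes rather than at their starts alone. In *C. elegans*, MRG-1 is needed for the survival and identity of germ cells, and the autosomes carry most of the genes that the germline expresses.

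The 415 domains covered 5.34 Mb, which was 46.2% of the bases of all shared sites on chromosomes II to V, although they were 16.9% of those sites by number. Their median width was 11440 bp, with quartiles of 9375.5 and 14176 bp. The narrowest was 8002 bp wide and the widest 59421 bp, 34 were at least 20000 bp wide and 8 at least 30000 bp. The other shared sites had a median width of 2608 bp. The widths formed 1 continuous distribution with no gap at the limit, so the limit cuts through a continuous range.

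**Figure D1:**
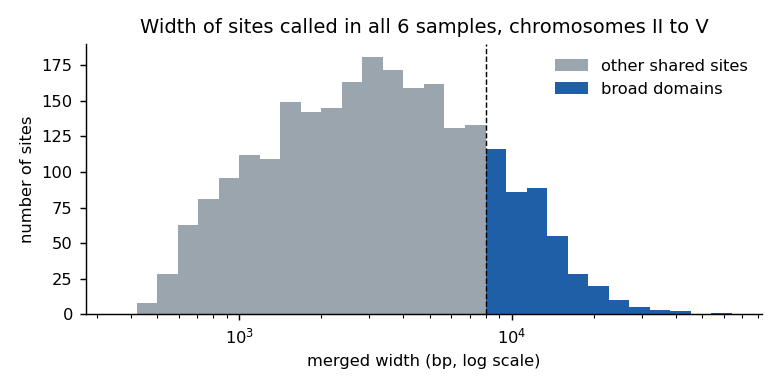
Number of sites called in all 6 samples on chromosomes II to V (vertical axis) by merged width in bp (horizontal axis, log scale), with the 415 broad domains in blue, the 2034 other shared sites in grey and the width limit of 8000 bp as a dashed line. The distribution falls smoothly across the limit and ends with a single domain of 59421 bp.

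Nothing set the sites just inside the limit above those just outside it. Just inside were a domain of 8002 bp on chromosome IV (4387161 to 4395162, ce10) and domains of 8037 bp and 8068 bp on chromosome III (10640765 to 10648801 and 13285446 to 13293513). Just outside were sites of 7990 bp on chromosome V (12283918 to 12291907), 7988 bp on chromosome III (3320191 to 3328178) and 7960 bp on chromosome IV (8683604 to 8691563). The highest fold enrichment in a sample ranged from 4.54 to 7.03 over the 3 domains just inside and from 5.62 to 10.1 over the 3 sites just outside. Nearly every wide site was a member: 416 sites on these chromosomes were at least 8000 bp wide, and 1 of them was not called in all 6 samples. This exception, 10003 bp on chromosome III (4429494 to 4439496), was called in the 3 N2 samples over 98.4%, 98.6% and 96.8% of its width at folds of 2.26, 2.72 and 2.52, and held no *glp-4(bn2)* peak.

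One library stood apart from the others within the domains. N2 replicate 2 had a single peak in 308 of the 415 domains, against 146 and 141 in N2 replicates 1 and 3, and its list held the longest peak of 302 domains. It covered at least 99% of 215 domains. Within *glp-4(bn2)*, replicate 2 also had the fewest peaks in the domains, 871 against 1158 and 1306. In each of the 6 lists the smallest distance between neighbouring peaks was 77 bp, so stretches closer than this were already joined when the lists were made. The lists held between 7073 and 7737 peaks, the lowest fold that entered a list was between 1.19 and 1.25, and read depth is unknown, because the lists give no read counts. The strain differences per sample, the counts of joined domains and the sums of bases called in 1 strain are given with and without N2 replicate 2, and the other counts include it.

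The number of peaks that made up a domain varied between libraries. N2 replicates 1, 2 and 3 had 939, 554 and 931 peaks inside the domains, and the *glp-4(bn2)* replicates had 1158, 871 and 1306. The mean number of peaks per domain was 2.26, 1.33 and 2.24 in N2 and 2.79, 2.10 and 3.15 in *glp-4(bn2)*. The ranges of the strains overlapped, because *glp-4(bn2)* replicate 2 lay below N2 replicates 1 and 3. The means were 1.95 ± 0.530 in N2 and 2.68 ± 0.533 in *glp-4(bn2)* (SD, n = 3 each). A two-sided exact permutation test of this difference gave p = 0.3 (adjusted p = 0.36 over 6 tests). Without N2 replicate 2, with the domains chosen again from 5 samples, the difference (N2 minus *glp-4(bn2)*) was -0.59 peaks per domain (exact permutation p = 0.4). With 3 samples against 3 this test cannot give a p below 0.1.

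The domains differed widely in how finely they were split. Exactly 1 peak, which need not cover the whole domain, was found in 35.2%, 74.2% and 34.0% of domains in N2 replicates 1, 2 and 3. In the *glp-4(bn2)* replicates these shares were 16.9%, 35.2% and 13.7%. The strain means were 47.8 ± 22.9% and 21.9 ± 11.6% (SD, n = 3 each), and the samples of the strains overlapped (two-sided exact permutation test, p = 0.3, adjusted p = 0.36). The difference was 25.9 percentage points, and 20.8 points without N2 replicate 2 (exact permutation p = 0.2). More than 4 peaks were found in 25, 2 and 20 domains in N2 and in 48, 18 and 66 domains in *glp-4(bn2)*. In all 6 samples, 30 domains held a single peak. That count was 100 for the 3 N2 samples alone and 39 for the 3 *glp-4(bn2)* samples alone.

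Domains in which the strains separated completely in the number of peaks were mostly split further in *glp-4(bn2)*. All 3 *glp-4(bn2)* samples had more peaks than all 3 N2 samples in 68 domains (16.4%), where 4.29% of all 2449 shared sites on these chromosomes had this pattern. The opposite pattern was found in 3 domains (0.723%), against 0.817% of all shared sites. Among the other shared sites, which are narrower and have less room for several peaks, 37 of 2034 (1.82%) had more peaks in all *glp-4(bn2)* samples. Merging 1 strain alone under the same rule gave 390 domains for N2 and 241 for *glp-4(bn2)*. The choice by width can thus favour this pattern, and nothing is read from the distance to these shares.

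**Figure D2:**
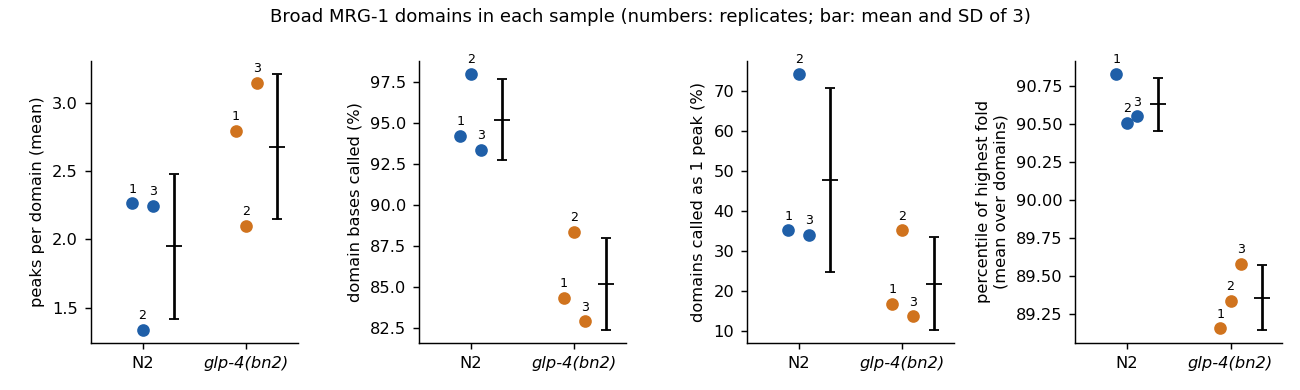
Values of each sample over the 415 domains: mean number of peaks per domain, percent of domain bases called, percent of domains called as 1 peak, and mean percentile of the highest fold (vertical axes, not starting at 0), for N2 (blue) and *glp-4(bn2)* (orange), with replicate numbers and the mean and SD of 3. The strains are separate in the second panel (93.4 to 98.0% against 82.9 to 88.4%) and the fourth (90.5 to 90.8 against 89.2 to 89.6), and overlap in the first and the third, where N2 replicate 2 stands apart.

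Each N2 sample called more of the domain bases than any *glp-4(bn2)* sample. The N2 replicates called 94.2%, 98.0% and 93.4% of the domain bases, and the *glp-4(bn2)* replicates called 84.4%, 88.4% and 82.9%. The means were 95.2 ± 2.47% and 85.2 ± 2.82% (SD, n = 3 each), a difference of 9.98 percentage points with the smallest p that the test allows (two-sided exact permutation test, p = 0.1, adjusted p = 0.3). Without N2 replicate 2, with the domains chosen again from 5 samples, the difference was 6.78 points (two-sided exact permutation test, p = 0.2).

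The other shared sites showed a strain difference of about the same size. They were called over 85.6%, 92.8% and 82.8% of their bases in N2 and over 75.0%, 82.6% and 70.2% in *glp-4(bn2)*. Within a sample, the domains exceeded the other shared sites by 8.64, 5.16 and 10.6 percentage points in N2 and by 9.35, 5.72 and 12.7 points in *glp-4(bn2)*. This excess differed between the strains by -1.12 points (N2 minus *glp-4(bn2)*), with overlapping samples (two-sided exact permutation test, p = 0.7, adjusted p = 0.7). Without N2 replicate 2 the difference was -1.35 points (exact permutation p = 0.7). The lower coverage in *glp-4(bn2)* was therefore not shown to be particular to broad domains.

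Read per domain, the lower coverage in *glp-4(bn2)* was widespread. In 265 domains (63.9%) all 3 N2 samples called a larger share of the bases than all 3 *glp-4(bn2)* samples, against 39.8% of all shared sites on chromosomes II to V and 34.9% of the other shared sites. The width that chose the domains is made of called bases, and the same rule applied to 1 strain alone gave 390 domains from the N2 samples and 241 from the *glp-4(bn2)* samples, so the choice itself favours an N2 excess and nothing is read from the distance to these background shares. The reverse held in 10 domains (2.41%), against 6.12% of all shared sites. The mean share called was higher in N2 in 376 of the 415 domains, and the median difference was 8.28 percentage points. The domains were also chosen again without both libraries numbered 2. Then 260 of 329 domains had both N2 samples above both *glp-4(bn2)* samples, and 13 had the reverse. Without N2 replicate 2 alone these counts were 215 and 15 of 350. The share over all shared sites was not counted in these settings.

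**Figure D3:**
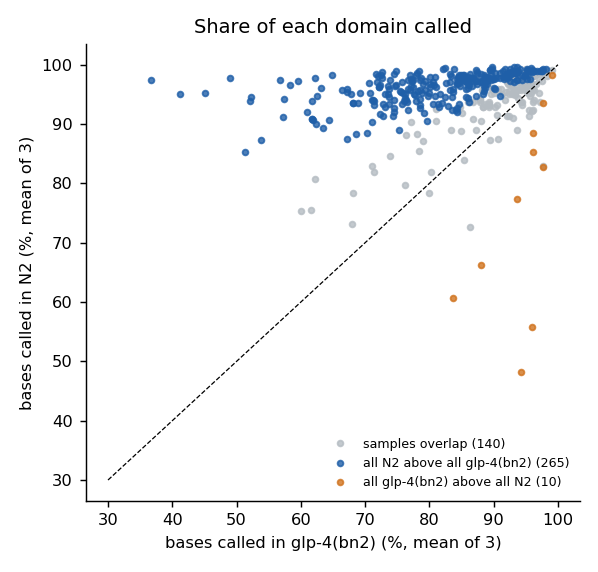
Each point is 1 of the 415 domains, placed by the percent of its bases called in *glp-4(bn2)* (horizontal axis, mean of 3) and in N2 (vertical axis, mean of 3), with the dashed line marking equal shares. The 265 domains in which all N2 samples lie above all *glp-4(bn2)* samples (blue) spread far to the left at N2 shares that stay high, while 10 domains (orange) show the reverse.

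Domains called over nearly all of their width were more numerous in each N2 sample than in any *glp-4(bn2)* sample. At least 90% of the domain was called in 345, 392 and 328 domains in the N2 replicates and in 152, 221 and 127 domains in the *glp-4(bn2)* replicates. In 93 domains all 6 samples reached that share. The same count was not made over the other shared sites, so nothing particular to the domains is read from it. The lowest share in any domain was 30.1%, 63.5% and 30.2% in N2 and 35.7%, 38.1% and 36.2% in *glp-4(bn2)*.

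The uncalled bases lay both between peaks and at the ends of the domains. Gaps between peaks of the same sample took 2.95%, 0.723% and 3.25% of the domain bases in N2 and 7.76%, 5.06% and 8.89% in *glp-4(bn2)*. The ends outside a sample's first and last peak took a further 2.85%, 1.28% and 3.40% in N2 and 7.88%, 6.59% and 8.20% in *glp-4(bn2)*. On both measures every *glp-4(bn2)* sample was above every N2 sample, and these measures are parts of the uncalled share and carry no test of their own.

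Gaps were longer in every *glp-4(bn2)* sample, while their numbers overlapped between strains. The N2 samples had 524, 139 and 516 gaps, with median lengths of 225, 175 and 254.5 bp. The *glp-4(bn2)* samples had 743, 456 and 891 gaps, with median lengths of 311, 311.5 and 319 bp. The longest gap was between 1662 and 2613 bp in the N2 samples and between 4469 and 5892 bp in the *glp-4(bn2)* samples. Gaps shorter than 500 bp made up 83.1% to 89.9% of the N2 gaps, against 63.4% to 67.3% of the *glp-4(bn2)* gaps.

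The gaps of the *glp-4(bn2)* samples tended to recur at the same bases. Of the gap bases of *glp-4(bn2)* replicates 1, 2 and 3, 50.2%, 79.2% and 44.8% were uncalled in all 3 *glp-4(bn2)* samples. Of the same gap bases, 70.7%, 68.9% and 67.2% were called in all 3 N2 samples. At least 77.9% of all domain bases were called in all 3 N2 samples, because that share was called in all 6 samples. The 3 N2 samples thus called these gap bases less often than domain bases in general. In N2 the gap bases uncalled in all 3 samples were 10.4%, 43.9% and 8.64% of each sample's gaps, where the few gaps of replicate 2 limit the count for the other libraries.

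Along the domain, the ends differed more between strains than the middle. The ends are set by the sample that reaches farthest, so part of this contrast can come from the merging, which was not tested. At the middle, 96.6%, 99.3% and 96.6% of domains were called in the N2 samples and 90.8%, 94.2% and 90.1% in the *glp-4(bn2)* samples. At 10% of the width from the left end, the shares were 94.5%, 97.1% and 94.0% in N2 and 81.9%, 86.0% and 79.6% in *glp-4(bn2)*. In the first 2% of the width, where the merged edge is set by the sample that reaches farthest, they were 61.2%, 82.7% and 54.0% in N2 and 30.8%, 36.9% and 25.1% in *glp-4(bn2)*.

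Most of the domain bases were common to all samples, but not in every domain. Bases called in all 6 samples summed to 4.16 Mb, 77.9% of the domain bases, and the median domain had 79.2% of its bases in this core. In a domain on chromosome V (11902923 to 11916738) the core was only 21.4% of the bases. The core was in pieces: 48 domains had 1 piece, the median was 3 and the largest number was 14, with 1485 pieces in all. Bases called in 1 sample alone were 2.53% of the total, and N2 replicate 2 accounted for 70.4% of them.

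Similarity of the called bases inside the domains was higher within a strain than between strains. The Jaccard index, the bases called in both samples divided by those called in either, was 0.946 ± 0.00893 over the 3 pairs of N2 samples, 0.916 ± 0.00876 over the 3 pairs of *glp-4(bn2)* samples and 0.862 ± 0.0173 over the 9 pairs across strains (SD over pairs, which share samples). In the other shared sites the means were 0.870, 0.830 and 0.768, in the same order.

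Merging the samples of 1 strain alone showed whether its called bases formed 1 piece inside a domain, which need not reach the domain's ends. The 3 N2 samples alone joined into 1 piece in 350 domains (84.3%), and the 3 *glp-4(bn2)* samples alone into 1 piece in 166 domains (40.0%). Both strains gave 1 piece in 142 domains. In 208 domains N2 gave 1 piece and *glp-4(bn2)* several, and in 24 domains the reverse held. Single pieces were not counted over the other shared sites. The choice by merged width itself favours an N2 excess, so nothing particular to the domains is read from these counts. Without N2 replicate 2 the counts of single pieces were 247 for N2 and 197 for *glp-4(bn2)* among 350 domains, and without *glp-4(bn2)* replicate 2 they were 373 and 98 among 401, so the difference in joining was smaller without the first library and larger without the second.

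Bases called by a strain alone were those that at least 2 of its samples called and that no sample of the other strain did. N2-only bases summed to 394 kb, 7.38% of the domain bases, of which 189 kb lay inside the domains and 205 kb at their ends. *glp-4(bn2)*-only bases summed to 24.6 kb, 0.460% of the domain bases. N2-only bases outnumbered *glp-4(bn2)*-only bases in 363 domains, and the reverse held in 35, both counted with N2 replicate 2. These counts were not made over the other shared sites, and nothing particular to the domains is read from them. Without N2 replicate 2 the sums were 196 kb and 53.4 kb. The *glp-4(bn2)*-only sum was also 14.9 kb without *glp-4(bn2)* replicate 1 and 13.4 kb without *glp-4(bn2)* replicate 2, and in each of these settings it stayed below the N2-only sum.

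The N2-only bases formed many short stretches, which were counted with N2 replicate 2 included. There were 578 stretches of at least 150 bp in 293 domains, with a median length of 419 bp. The longest, 3859 bp, lay at the end of a domain on chromosome II (12919285 to 12923143), and the longest one away from an end was 2949 bp, also on chromosome II (6343700 to 6346648). *glp-4(bn2)*-only bases formed 40 stretches of at least 150 bp in 32 domains, and the longest was 1327 bp. The median domain had 4.37% of its bases called in N2 alone, 20 domains had at least 25%, and the highest share was 58.2%.

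The fold enrichment, which the choice of domains did not use, placed the domains among the strongest sites of each list. Folds rest on the background of their own list, so each domain's highest fold was expressed as its percentile among all peaks of the same list. The mean percentile over the domains was 90.8, 90.5 and 90.5 in N2 and 89.2, 89.3 and 89.6 in *glp-4(bn2)*. For the other shared sites it was 67.1, 68.5 and 65.4 in N2 and 62.5, 65.8 and 61.0 in *glp-4(bn2)*. A wider site has more positions at which the highest value can lie, and the part of width in this contrast was not tested.

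In fold units, the median over domains of the highest fold was 7.47, 7.16 and 7.12 in N2 and 6.08, 7.06 and 5.63 in *glp-4(bn2)*. The other shared sites had medians of 3.24, 3.40 and 3.10 in N2 and 2.69, 3.05 and 2.61 in *glp-4(bn2)*. In every sample the median of the domains was thus above 2 times that of the other shared sites. The highest fold of any domain was between 9.33 and 12.6 in the 6 samples, and the lowest was between 1.74 and 2.03. The highest fold lay in the top 25% of the list in all 6 samples in 366 domains, 8 domains fell below the list's median in at least 1 sample, and none did so in all 6. These counts were not made over the other shared sites, and the part of width in them was not tested.

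The percentile was slightly higher in each N2 sample. The means were 90.6 ± 0.176 in N2 and 89.4 ± 0.213 in *glp-4(bn2)* (SD, n = 3 each), a difference of 1.27 percentile points, and the samples of the strains did not overlap (p = 0.1 by the two-sided exact permutation test, adjusted p = 0.3). Without N2 replicate 2 the difference was 1.23 points (exact permutation p = 0.1). The excess of domains over other shared sites was 23.6 ± 1.60 points in N2 and 26.2 ± 2.52 points in *glp-4(bn2)*. The samples of the strains overlapped in this excess, with a difference of -2.63 points (two-sided exact permutation test, p = 0.3, adjusted p = 0.36). Without N2 replicate 2 the difference was -1.99 points (exact permutation p = 0.5). Per domain, the strains differed no more often than at shared sites in general: in 111 domains (26.7%) all N2 percentiles exceeded all *glp-4(bn2)* percentiles, against 28.2% of all shared sites, and in 33 domains (7.95%) the reverse held, against 11.7%.

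Most peaks inside domains, but not all, had a fold at or above the median of their list. Of the peaks inside domains, 21.6%, 10.5% and 24.0% in N2 and 25.3%, 18.9% and 28.6% in *glp-4(bn2)* had a fold below the median of their list. The median peak inside a domain was 3766, 9276 and 3705 bp long in N2 and 2742.5, 4329 and 2236 bp in *glp-4(bn2)*. Single peaks of at least 8000 bp were found in 254, 361 and 256 domains in N2 and in 156, 212 and 124 domains in *glp-4(bn2)*, in all 6 samples in 102 domains and in no sample in 32. The last group reached the width limit only through the joining of shorter peaks.

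Summits, the positions of highest enrichment within peaks, were spread over the domains. The 5759 summits of the 6 samples fell into 2264 clusters when summits of neighbouring positions within 250 bp were joined, with a median of 5 clusters per domain and at most 25. A cluster with a summit of every sample occurred 246 times, in 235 domains. The highest summit of each sample fell into the same cluster in 204 domains (49.2%). Clusters with summits of at least 2 *glp-4(bn2)* samples and no N2 sample numbered 279, against 110 for the reverse, and *glp-4(bn2)* had more peaks and therefore more summits to place. Of 2490 highest summits, 1 for each domain and sample, 59.0% lay in the middle 50% of the domain and 11.9% in the outer 10% at either end.

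The widest domains lay mostly on chromosome III. The widest of all, 59421 bp (III, 4887678 to 4947098), was a single peak in N2 replicate 2, where it was also the longest peak of any domain. It had 9, 1 and 6 peaks in N2 and 10, 7 and 12 in *glp-4(bn2)*. The N2 samples called 96.1%, 100% and 96.5% of it, and the *glp-4(bn2)* samples 88.6%, 91.3% and 89.8%. Its highest folds were 8.88, 8.75 and 8.32 in N2 and 6.86, 8.50 and 6.48 in *glp-4(bn2)*. Bases called in all 6 samples formed 13 pieces, and the *glp-4(bn2)* samples merged alone gave 8 pieces.

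The next widest domain, 42676 bp (III, 3697177 to 3739852), was also split most in *glp-4(bn2)* replicate 3. It had 7, 1 and 7 peaks in N2 and 9, 6 and 12 in *glp-4(bn2)*, and shared with the widest domain the largest number of peaks in 1 sample, 12. The N2 samples called 93.9%, 100% and 93.1% of it and the *glp-4(bn2)* samples 77.4%, 84.0% and 76.6%. In the number of peaks the strains overlapped in this domain and in the widest, because *glp-4(bn2)* replicate 2 had fewer than N2 replicate 1. The remaining domains over 30000 bp were 5 on chromosome III and 1 on chromosome IV. Those on chromosome III were 38772 bp (9793924 to 9832695), 36875 bp (4562622 to 4599496), 35683 bp (5147547 to 5183229), 34589 bp (6362394 to 6396982) and 30939 bp (5248663 to 5279601) wide. The last was called almost alike in both strains, at 96.9%, 100% and 97.3% in N2 and 95.8%, 97.3% and 95.2% in *glp-4(bn2)*.

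On the other chromosomes the widest domains were narrower. On chromosome IV the widest, 30091 bp (7770615 to 7800705), had 2, 1 and 2 peaks in N2 and 9, 2 and 9 in *glp-4(bn2)*, and *glp-4(bn2)* replicate 2 equalled N2 replicates 1 and 3. On chromosome II the widest, 28618 bp (7851984 to 7880601), was 1 peak in every N2 sample and 3, 3 and 2 peaks in *glp-4(bn2)*, although all samples called at least 97.0% of it. The last of the 10 widest domains, 28259 bp, lay on chromosome IV (12076116 to 12104374). On chromosome V the widest was 22121 bp (7216622 to 7238742), with 3, 1 and 4 peaks in N2 and 3, 2 and 7 in *glp-4(bn2)*.

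The domains with the largest N2 excess in called bases kept strong summits in *glp-4(bn2)* in some cases and not in others. A domain of 9055 bp on chromosome V (5269134 to 5278188) was called over 96.2%, 97.5% and 98.5% in N2 and over 35.7%, 38.1% and 36.2% in *glp-4(bn2)*. Its highest folds of 9.21, 8.02 and 8.64 in N2 and 7.48, 8.65 and 6.83 in *glp-4(bn2)* were in the top 5% of every list. In *glp-4(bn2)* 2 short peaks around these summits remained, and the bases between and beyond them were not called. At a domain of 11232 bp on the same chromosome (11071644 to 11082875) the called share was 91.5%, 99.2% and 94.3% in N2 and 37.7%, 44.0% and 42.0% in *glp-4(bn2)*. There the highest folds were 6.07, 6.53 and 6.18 in N2 and 3.18, 3.46 and 3.32 in *glp-4(bn2)*. At a domain of 11444 bp on chromosome III (6553273 to 6564716), called over 93.7%, 99.9% and 91.9% in N2 and 45.7%, 48.9% and 40.6% in *glp-4(bn2)*, enrichment was low in both strains, with highest folds of 2.93, 3.70 and 2.80 in N2 and 2.36, 2.24 and 2.26 in *glp-4(bn2)*.

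In the domains with the largest excess in *glp-4(bn2)*, the highest fold was at most 3.19 in N2 replicates 1 and 3. A domain of 9127 bp on chromosome II (4717168 to 4726294) was called over 30.1%, 84.0% and 30.2% in N2 and over 88.7%, 100% and 94.2% in *glp-4(bn2)*. Its highest folds were 2.35, 2.54 and 2.51 in N2 and 3.27, 4.25 and 3.45 in *glp-4(bn2)*, so that every *glp-4(bn2)* sample was above every N2 sample in both measures. A domain of 8603 bp on chromosome IV (6610212 to 6618814) was called over 37.7%, 93.9% and 35.9% in N2 and over 95.3%, 98.0% and 94.8% in *glp-4(bn2)*. Its folds of 3.16, 5.40 and 3.19 in N2 and 3.79, 4.77 and 3.69 in *glp-4(bn2)* overlapped through N2 replicate 2. The third, 13816 bp on chromosome V (11902923 to 11916738), was called over 54.5%, 63.5% and 63.9% in N2 and 82.4%, 87.7% and 81.1% in *glp-4(bn2)*.

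**Figure D4:**
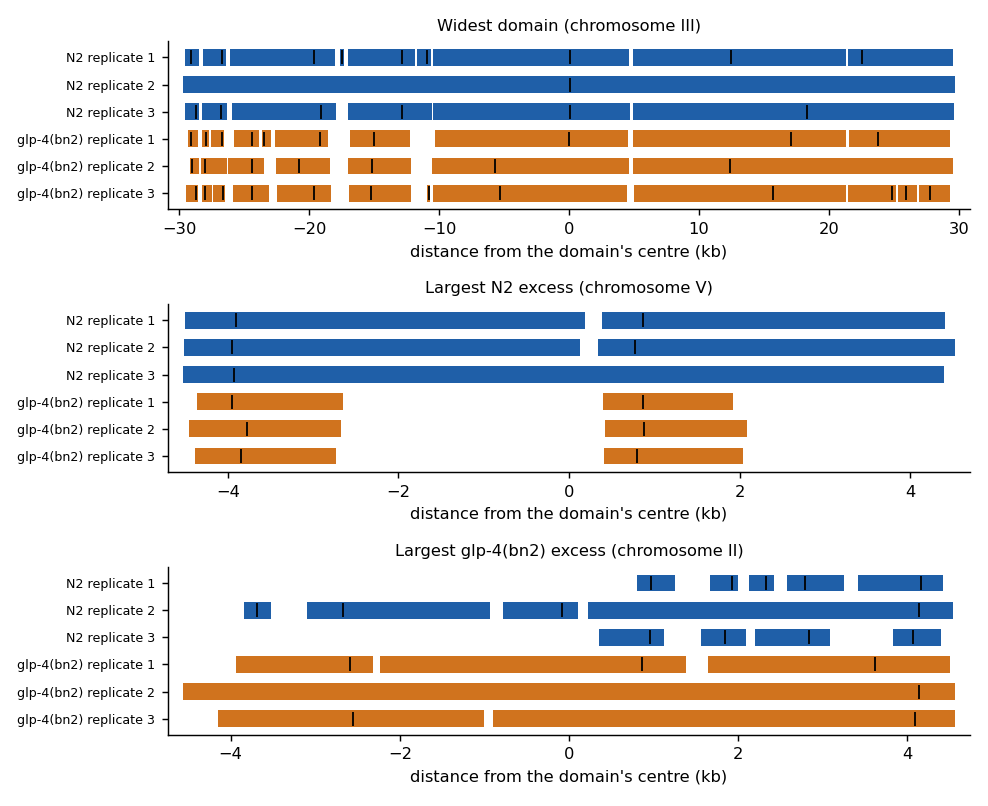
Peaks of each sample (bars, N2 blue and *glp-4(bn2)* orange) and their summits (black ticks) by distance from the domain's centre in kb, for the widest domain and for the domains with the largest excess of called bases in N2 and in *glp-4(bn2)*. The widest domain is 1 unbroken peak in N2 replicate 2 and 6 to 12 peaks in the other samples, the chromosome V domain shrinks to 2 short peaks in each *glp-4(bn2)* sample (35.7 to 38.1% called), and the chromosome II domain is called over 88.7 to 100% in *glp-4(bn2)*.

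The last of these domains was also the weakest. On chromosome V at 11902923 to 11916738, the highest folds were 1.80, 1.74 and 1.78 in N2 and 2.21, 2.41 and 2.12 in *glp-4(bn2)*, and the mean percentile over the 6 samples, 36.8, was the lowest of all domains. It was made of 10, 7 and 6 peaks in N2 and 11, 4 and 9 in *glp-4(bn2)*. At the other extreme, a domain of 9835 bp on chromosome IV (16857351 to 16867185) reached folds of 12.5, 11.0 and 12.0 in N2 and 11.0, 12.6 and 9.19 in *glp-4(bn2)*, with a mean percentile of 99.9. Its samples overlapped in the fold and in the share of bases called.

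Wider domains were called slightly more completely and were somewhat stronger. The 143 domains below 10000 bp were called over 93.3% of their bases in N2 and 83.4% in *glp-4(bn2)* (means of 3), and the 69 domains of at least 16000 bp over 96.8% and 88.7%. The mean percentile of the highest fold over all samples was 88.8 in the first class and 92.9 in the second. In the classes between, 89 domains of 10000 to 12000 bp and 114 of 12000 to 16000 bp, the *glp-4(bn2)* share was 82.2% and 85.1% and the percentile 88.4 and 91.0, so neither measure rose with width at every step.

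Chromosome III held the most domains. There were 109 on chromosome II, 138 on III, 106 on IV and 62 on V, covering 1.36, 1.98, 1.29 and 0.711 Mb. As a share of the shared sites of each chromosome they were 18.4%, 18.5%, 17.2% and 12.5%, and on chromosome III they held 52.0% of the bases of its shared sites. Sites of the same width called in all 6 samples were 150 of 850 (17.6%) on chromosome I, which was not among the chromosomes chosen, and 4 of 279 (1.43%) on the X chromosome. The chromosomes differed little in the median width of their domains, from 10726 bp on V to 11931.5 bp on III.

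The strain difference was present on each chromosome. The mean share of domain bases called was 94.5% in N2 and 86.0% in *glp-4(bn2)* on chromosome II, 95.7% and 85.8% on III, 95.1% and 84.4% on IV, and 95.1% and 83.3% on V. On each of these chromosomes all N2 samples were above all *glp-4(bn2)* samples. The number of domains with all N2 samples above all *glp-4(bn2)* samples was 61 (56.0%), 91 (65.9%), 68 (64.2%) and 45 (72.6%), in the same order, and whether the chromosomes differ was not tested. Over all shared sites on chromosomes II to V the share was 39.8%, and it was not counted per chromosome. The choice of domains itself favours an N2 excess, so nothing is read from the distance to this share.

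Domains were more central on their chromosomes than other shared sites. The centres of *C. elegans* autosomes are known for a high density of conserved and widely expressed genes, and the arms for more repeats and more recombination. The middle 40% of the span between the first and the last peak held 281 domains (67.7%) and 722 of the other shared sites (35.5%). On chromosomes II, III, IV and V it held 67.0%, 68.8%, 65.1% and 71.0% of the domains and 36.3%, 31.3%, 34.5% and 41.7% of the other shared sites. The outer 20% held 43 domains. These shares are descriptions over sites, which are not replicates.

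**Figure D5:**
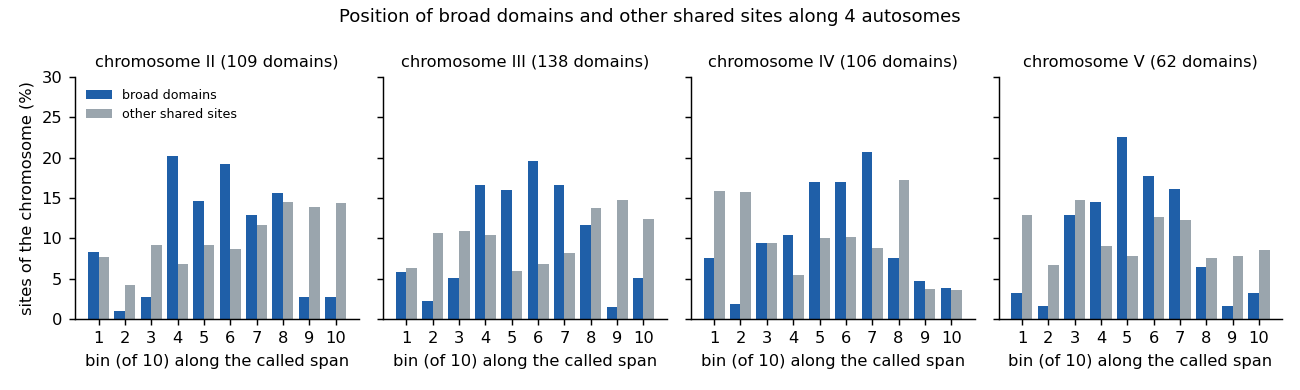
Percent of the broad domains (blue) and of the other shared sites (grey) of each chromosome that lie in each of 10 equal bins of the span between its first and last peak (horizontal axis, 1 to 10), for chromosomes II (109 domains), III (138), IV (106) and V (62). On each chromosome the tallest blue bar lies in bins 4 to 7, which together hold 281 domains (67.7%), against 35.5% of the other shared sites.

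Domains came close together in places. The median distance between neighbouring domains was 55348.5 bp on chromosome II, 38076 bp on III, 79992 bp on IV and 164711 bp on V. In 31 cases neighbouring domains were less than 5000 bp apart, 17 of them on chromosome III, and the closest were 33 bp apart on chromosome II. The window of 1 Mb with the most domains held 20, on chromosome III, and domains covered up to 28.9% of a window on that chromosome. A domain was a median of 416 bp from the nearest other site of any kind, and the other shared sites a median of 384.5 bp. The domains thus had close neighbours about as often as other sites: 54.2% of domains and 58.3% of other shared sites lay less than 500 bp from one.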

How the data were processed

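MRG-1 ChIP-seq peak lists of 6 samples were used as deposited. Read pairs had been aligned to the ce10 build by the authors (Bowtie2 2.3.2), who ran MACS2 2.1.0 on each replicate, extending reads to 300 bp and keeping peaks up to a q-value of 0.05. The control used in peak calling is not given in the sources used here. The deposited lists give, per peak, a fold enrichment (a ratio over the local background), −log10 of the q-value, and the summit as another value, an offset from the start. A stretch below the threshold in a sample is uncalled, which does not measure its enrichment.

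Peaks were merged, and domains chosen, as described in the text. The domains, measures and named sites were chosen with earlier results of these data known. The named sites are the 10 widest, the widest per chromosome, 3 on either side of the width limit, those with the most peaks in a sample, the 3 with the largest strain difference each way in called bases among those whose samples did not overlap, the highest and lowest mean percentile, and the longest peak. Other positions were chosen after their values were seen. One value per sample was compared by two-sided exact permutation tests, adjusted over 6 tests by Benjamini and Hochberg. Counting was tested on simulated lists. Genes and sequences at the domains were not analysed, for want of a ce10 annotation here. Python 3.11.15, numpy 2.4.6, pandas 2.3.3, scipy 1.17.1 and matplotlib 3.10.9 were used.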

Additional observations from a re-analysis of the deposited data

How the results depend on the processing

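With all samples kept, the alternatives were width limits of 6000 and 10000 bp, an overlap of 150 bp, q-values of 0.001 and 1e-05, calls in at least 2 samples of each strain, chromosome I added, each strain merged alone, a length-weighted fold, other shared sites of at least 4000 bp, and pairing by number. Of 101 values, 89 kept the sign of a strain difference or stayed within 1.5 times a count, and the size of a difference was not judged. The number of domains was 634 at 6000 bp, 272 at 10000 bp and 241 when *glp-4(bn2)* alone was merged. At 6000 bp, 403 of these 634 domains had all N2 samples above all *glp-4(bn2)* samples in called bases, where 39.8% of all shared sites had this pattern. A choice by merged width can favour an N2 excess at this limit too, so nothing is read from the distance to this share. The strain difference (N2 minus *glp-4(bn2)*) in the excess of domains over other shared sites in called bases reversed to 0.601 points at 6000 bp (exact permutation p = 0.8). It was -3.03 to 0.215 points with single samples left out, the last without *glp-4(bn2)* replicate 3, and -3.41 points without both libraries numbered 2. The cause was not tested. Leaving out both libraries numbered 2, and the settings for counts and for bases called in 1 strain, were chosen after seeing the data; N2-only bases were then 255 kb. Replicate numbers were not shown to pair samples: the correlations of deviations in called bases between samples of the same number were -0.0931, 0.277 and 0.202 over shared sites. With the replicate block the differences were 9.98 points in called bases, -0.73 peaks per domain and 1.27 percentile points, with an exact sign-flip p of 0.25, the smallest that 3 pairs allow. No test passed a threshold of 0.05 in any setting, which the number of samples does not allow. Without read counts, depth could not be compared with the called share.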
